A study of Mus musculus with 6 samples.

Results

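Chemokines and their receptors were examined in iWAT (inguinal white adipose tissue), a subcutaneous fat depot of mice. Members were rows of the deposited expression table whose symbol was Ccl, Cxcl, Ccr, Cxcr, Xcr or Ackr followed by a number and at most 1 letter, began with Cx3c, or was Xcl1. The 60 members described, of 23997 symbols, were 39 ligands and 21 receptors, and names such as Ccrl were left out. The members were picked by name, but the family was chosen with earlier results of these data known. The 6 RNA-seq libraries formed 2 groups. The 3 Atf4AKO libraries came from mice with floxed Atf4 alleles and Cre recombinase under the adiponectin promoter (AdipoqCre), which deletes the gene in adipocytes. The 3 Atf4WT libraries came from mice with the floxed alleles and no Cre. Housing was at 22 °C, and every mouse spent 12 h at 5 °C before sampling, so the comparison is between genotypes in the cold and holds no cold response. Cre went with the group in every library, so loss of Atf4 and presence of Cre cannot be told apart. The labels used here give no age, sex or strain, and do not state whether a library is 1 animal or a pool, so each p-value reflects only how these libraries vary, which may be technical. The other cells of the pad keep Atf4, and the values are of the whole pad: fewer cells of a type and less RNA per cell cannot be told apart.

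Chemokines are small secreted proteins that direct the migration of leukocytes, and they are grouped by the spacing of their first cysteines into CC, CXC, CX3C and XC families. They act on receptors coupled to Gi proteins, while atypical receptors bind chemokines without that signal and clear or transport them. Inflammatory chemokines are induced in macrophages, fibroblasts, endothelium and adipocytes, in large part through NF-kB, whereas homeostatic ones guide cells in unstressed tissue. In fat, Ccl2 and its receptor Ccr2 are known for the entry of monocytes, which become tissue macrophages.

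Values are FPKM, fragment numbers corrected for transcript length and for the fragments mapped in a library, so that levels of different genes can be compared. Atf4 itself was 135 ± 19.4 FPKM in Atf4AKO and 299 ± 36.1 FPKM in Atf4WT (mean ± SD, n = 3 each), with no overlap between libraries. Depth read from the steps of low values differed by at most 1.28-fold between libraries. The library Atf4AKO 1 stood apart in leukocyte markers. All 11 tested macrophage markers and all 6 monocyte markers were highest there. Summed macrophage markers were 1911, 750.2 and 383 FPKM in Atf4AKO 1, 2 and 3, against 198 to 459 FPKM in Atf4WT. Summed monocyte markers were 349.9, 93.9 and 55.1 FPKM in Atf4AKO 1, 2 and 3, against 42.0 to 86.8 FPKM in Atf4WT. Neutrophil markers, 5 of 7 tested highest in Atf4AKO 1, summed to 274, 56.7 and 41.2 FPKM in Atf4AKO 1, 2 and 3 and to 29.8 to 144 FPKM in Atf4WT. In Atf4WT 1, 115.6 of the 144 FPKM was Ltf, which mammary epithelium also makes, and no other marker of that list exceeded 13.6 FPKM in Atf4WT. Adipocyte markers were high throughout, summing to 41076 to 63469 FPKM in Atf4AKO and 34909 to 50953 FPKM in Atf4WT. Skeletal muscle markers ranged from 7.96 to 7305 FPKM in Atf4AKO and from 8.92 to 756 FPKM in Atf4WT. The part of these cells in the chemokine values was not tested, so the main results are also given without Atf4AKO 1.

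The tissue was rich in a few ligands and in atypical receptors. Ccl6, Cxcl13, Ccl9 and Cxcl12 were the ligands of highest mean, and together made up 60.8% to 70.7% of all ligand FPKM in the Atf4AKO libraries and 60.7% to 65.2% in the Atf4WT libraries. Ccl8 and Ccl11 followed. Among receptors, Ackr3, Ackr1 and Cxcr4 held 71.9% to 86.2% of receptor FPKM in Atf4AKO and 80.2% to 83.1% in Atf4WT, with Ackr3 at the top in every library. Ligand FPKM summed to 2136, 936 and 682 in Atf4AKO 1, 2 and 3, against 690.3, 471 and 484 in Atf4WT 1, 2 and 3. Receptor FPKM summed to 164, 144 and 99.96 in Atf4AKO 1, 2 and 3, against 98.9, 91.6 and 83.3 in Atf4WT 1, 2 and 3. The sums of Atf4AKO 3 and Atf4WT 1 were thus close, and the ligand sum of Atf4AKO 1 was set mostly by Ccl6, Ccl8 and Ccl9.

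**Figure D1:**
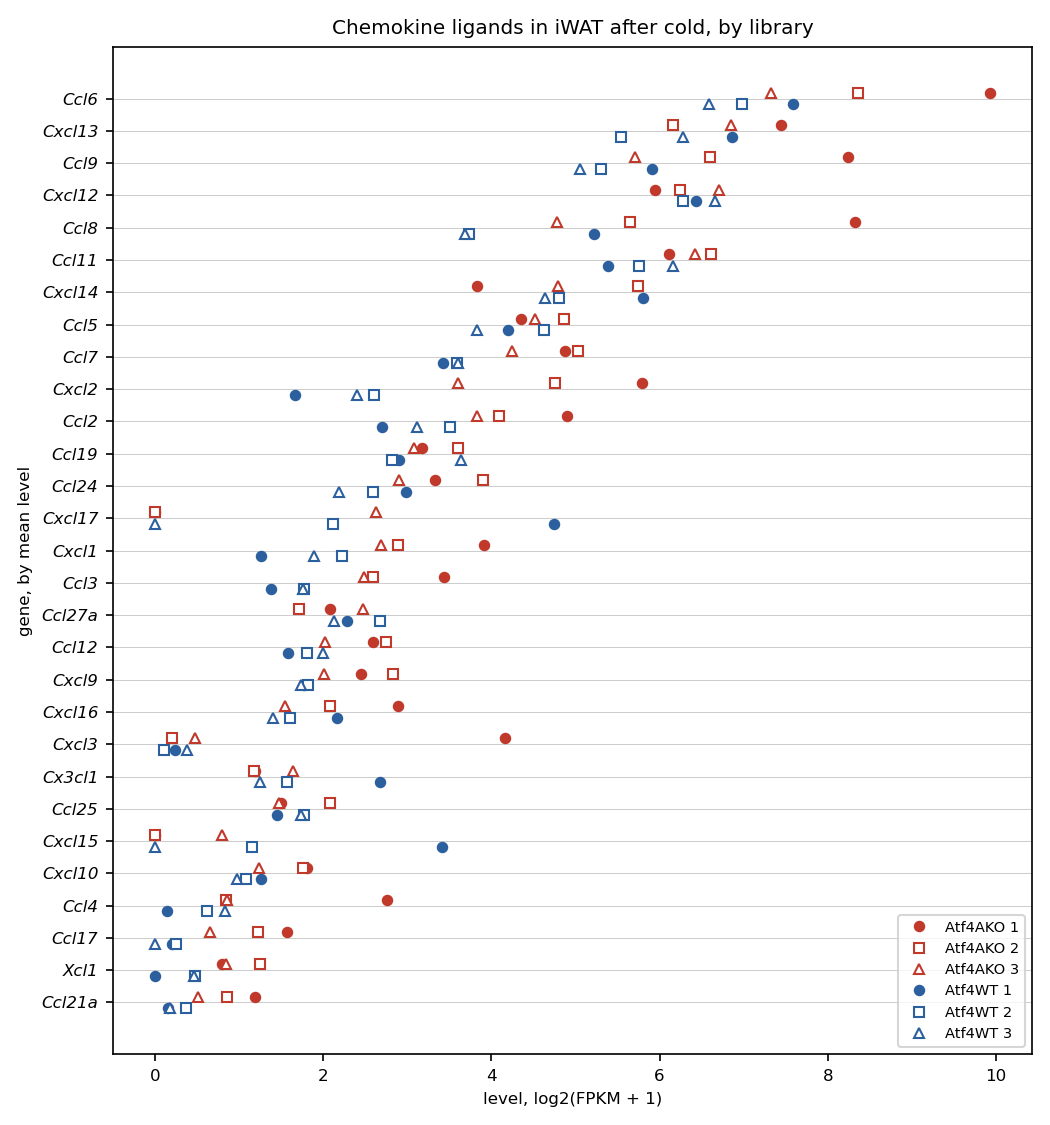
Level of each of the 29 tested ligands in each library, as log2(FPKM + 1), with genes ordered by mean level. Red symbols are the 3 Atf4AKO libraries and blue symbols, drawn below them in each row, the 3 Atf4WT libraries, with filled circles for replicate 1. Cxcl2, Ccl7, Ccl2, Cxcl1 and Ccl3 show no overlap between groups, and Ccl6, Ccl9, Ccl8 and Cxcl3 have Atf4AKO 1 far to the right.

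Of the 60 members 39 averaged at least 0.5 FPKM across libraries and were tested, 29 ligands and 10 receptors. No member passed the test between genotypes (limma on log2(FPKM + 1), Benjamini-Hochberg adjusted p of 0.50 or above for each), so "higher" and "lower" below describe values. Over all 12818 tested genes, 2 passed as higher in Atf4AKO (0.0156%) and none as lower (0%). Atf4 itself did not pass (limma adjusted p = 0.49), so a failure to pass does not show that a gene is unchanged. An unadjusted limma p under 0.05, for which the adjusted p was 0.50 in every member, was found for 13 ligands and 2 receptors. All were higher in Atf4AKO, against a background of 5.04% of all genes higher and 4.91% lower. Of the 13 ligands, Ccl17, Ccl21a and Xcl1 had an Atf4WT mean under 0.5 FPKM. They entered the test only through Atf4AKO, which favours that direction, as did Ccl4, Cxcl3 and Cxcr2 among the positive changes below. The log2 change, Atf4AKO minus Atf4WT on the log2(FPKM + 1) scale, was positive in 23 of 29 ligands with a median of 0.65, and in 7 of 10 receptors with a median of 0.36. Over all tested genes it was positive in 50.6% with a median of 0.0046. Without Atf4AKO 1 the ligand median was 0.48 (25 of 29 positive) and the receptor median 0.15 (6 of 10 positive). The genes were still those that averaged at least 0.5 FPKM with Atf4AKO 1 included, so that library kept a part in choosing them. Cxcl3 and Cxcr2, both counted as positive, averaged 0.273 and 0.285 FPKM in Atf4AKO 2 and 3. With a pseudocount of 1, changes of low genes come out smaller than their ratios.

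In 11 ligands and 1 receptor every Atf4AKO library lay above every Atf4WT library, and in no tested ligand or receptor did every Atf4AKO library lie below. Over all tested genes, 8.21% lay wholly above and 8.34% wholly below. For such genes the exact two-sided permutation p is 0.1, the smallest that 3 against 3 libraries can give. The 11 ligands were Ccl2, Ccl3, Ccl4, Ccl7, Ccl12, Ccl17, Ccl21a, Cxcl1, Cxcl2, Cxcl9 and Xcl1, and the receptor was Ackr2. Ccl4, Ccl17, Ccl21a and Xcl1 had an Atf4WT mean under 0.5 FPKM, so they entered the test only through Atf4AKO. The same holds for Cxcl3 and Cxcr2, and Cxcl15 entered only through Atf4WT. Without Atf4AKO 1 the count was 12 ligands and 1 receptor above, against a background of 12.2%, and 0 ligands and 1 receptor, Ccr2, below, against a background of 12.3%. These counts and backgrounds, too, are over genes chosen with Atf4AKO 1 included.

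**Figure D2:**
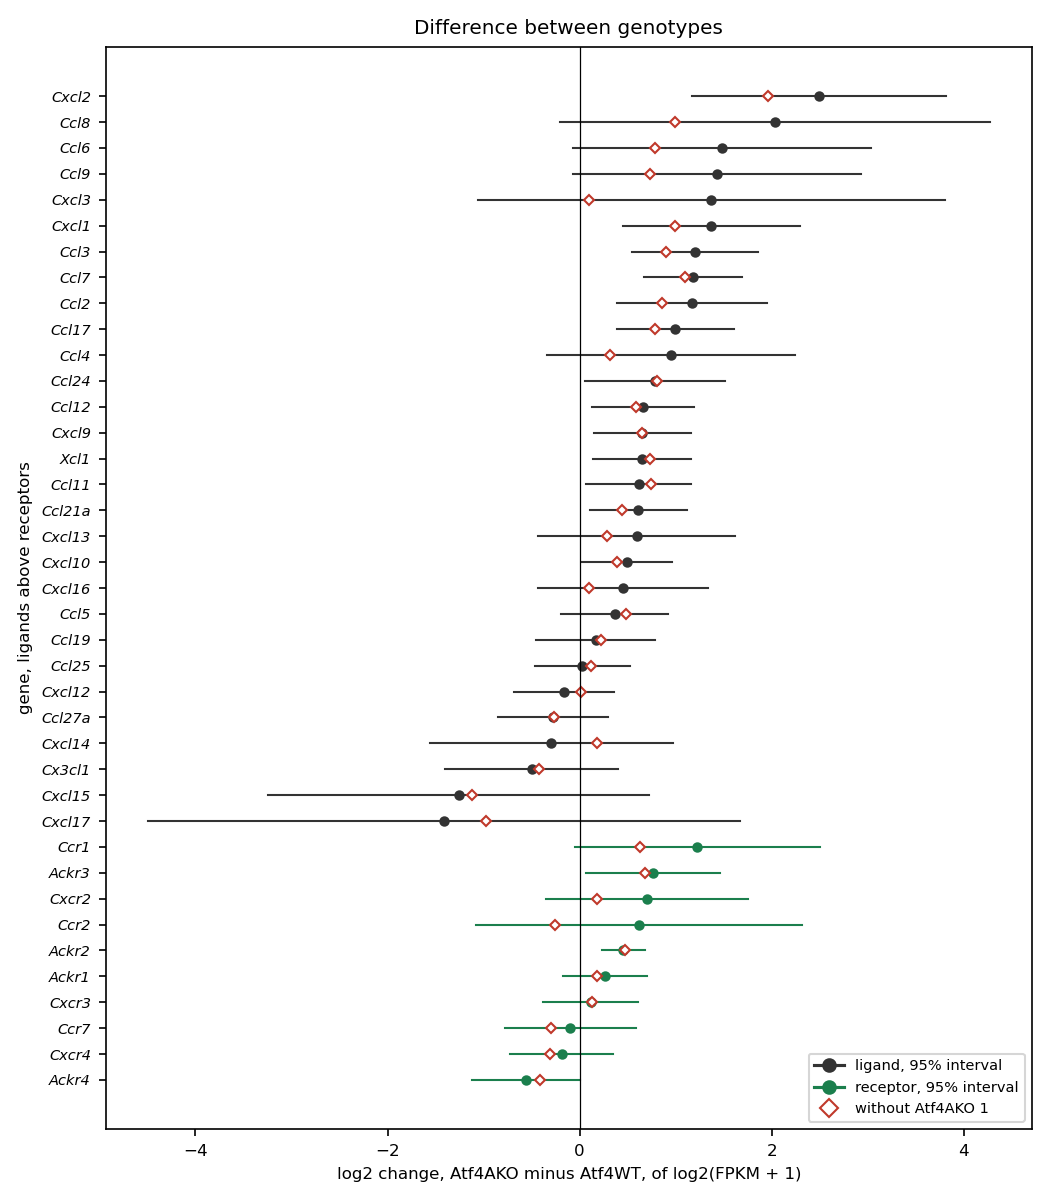
Log2 change of each tested member, Atf4AKO minus Atf4WT on the log2(FPKM + 1) scale, with its limma 95% interval from 3 libraries a group. Black marks ligands, green marks receptors, and open red diamonds give the value without Atf4AKO 1. Cxcl2 has the largest change, 2.49, and the diamond of Ccr2 lies below 0.

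The ligands of Ccr2, which draw monocytes out of blood into tissue, were higher in Atf4AKO in all 4 members, none past the test. Ccl7 was 28.3, 31.8 and 18.0 FPKM in Atf4AKO 1, 2 and 3, against 9.79, 11.0 and 11.2 FPKM in Atf4WT 1, 2 and 3. The Atf4WT libraries were close together, and the lowest Atf4AKO library stood well clear of them. The group means were 26.0 ± 7.13 FPKM in Atf4AKO and 10.7 ± 0.754 FPKM in Atf4WT (SD, n = 3 each), or 2.44 times as much in Atf4AKO. The log2 change was 1.18 (SE 0.21, 95% interval 0.67 to 1.69, limma adjusted p = 0.50). It was 1.10 without Atf4AKO 1, so little of it rested on that library.

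Ccl2, the principal monocyte attractant, was 28.9, 16.1 and 13.3 FPKM in Atf4AKO, against 5.50, 10.4 and 7.69 FPKM in Atf4WT. The groups did not overlap, and Atf4AKO 1 was again the highest. Its ratio of means was 2.47 and its log2 change 1.17 (SE 0.32, 95% interval 0.39 to 1.95), and 0.86 without Atf4AKO 1. Ccl12, a further mouse ligand of Ccr2, was 5.05, 5.72 and 3.08 FPKM in Atf4AKO, against 2.0, 2.51 and 2.99 FPKM in Atf4WT. Atf4AKO 3 and Atf4WT 3 were here nearly level, so the separation was narrow, and the log2 change was 0.66, or 0.59 without Atf4AKO 1. Ccl8, which in mice also acts on Ccr8, was 319, 49.0 and 26.4 FPKM in Atf4AKO, against 36.2, 12.3 and 11.9 FPKM in Atf4WT. The groups overlapped, since Atf4WT 1 lay above Atf4AKO 3. The ratio of means of Ccl8 was 6.54 with all libraries and 1.87 without Atf4AKO 1, with a log2 change of 2.03 (95% interval -0.20 to 4.27).

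The CC ligands of Ccr1 and their relatives act on monocytes, macrophages, neutrophils and activated T cells. All 5 had positive log2 changes, with a median of 1.20 and of 0.73 without Atf4AKO 1. Ccl3 was 9.80, 5.05 and 4.60 FPKM in Atf4AKO, against 1.60, 2.43 and 2.39 FPKM in Atf4WT. The groups were well apart, and the log2 change was 1.20 (SE 0.27, 95% interval 0.54 to 1.86), or 0.90 without Atf4AKO 1. Ccl4, its neighbour and close relative, was 5.77, 0.80 and 0.812 FPKM in Atf4AKO, against 0.107, 0.535 and 0.788 FPKM in Atf4WT. Here only Atf4AKO 1 stood clear, and the log2 change was 0.95, or 0.32 without it. The RefSeq spans of Ccl3 and Ccl4 overlap, and no source used here says if counting was strand-aware, so reads of the pair may not be separated.

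Ccl6 and Ccl9 are ligands of Ccr1 found in rodents and made by myeloid cells. Ccl6 was the ligand of highest mean, at 974, 327 and 159 FPKM in Atf4AKO and 191, 125 and 95.5 FPKM in Atf4WT. Ccl9 was 302, 95.9 and 51.2 FPKM in Atf4AKO and 59.0, 38.5 and 32.1 FPKM in Atf4WT. Both genes placed the 6 libraries in the same order, Atf4AKO 1 highest and Atf4WT 3 lowest, with Atf4WT 1 above Atf4AKO 3. That is also the order of the summed macrophage markers, whose part in these values was not tested. The log2 changes were 1.49 for Ccl6 (95% interval -0.06 to 3.04) and 1.43 for Ccl9 (95% interval -0.07 to 2.93), and 0.79 and 0.73 without Atf4AKO 1. Ccl5, made mainly by T cells and natural killer cells, lay between 19.4 and 28.1 FPKM in Atf4AKO and between 13.2 and 23.6 FPKM in Atf4WT, a ratio of 1.28 with overlapping groups.

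The CXC ligands that carry the ELR motif act on Cxcr2 and draw neutrophils. Cxcl2 showed the largest log2 change of all tested members. It was 54.4, 26.1 and 11.2 FPKM in Atf4AKO, against 2.17, 5.09 and 4.30 FPKM in Atf4WT. The lowest Atf4AKO library was above the highest Atf4WT library by more than the whole range of Atf4WT, and the Atf4AKO libraries differed strongly among themselves. The means were 30.5 ± 21.9 FPKM in Atf4AKO and 3.85 ± 1.51 FPKM in Atf4WT (SD, n = 3 each), a ratio of 7.93, and of 4.84 without Atf4AKO 1. The log2 change was 2.49 (SE 0.55, 95% interval 1.17 to 3.82).

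Cxcl1 was 14.1, 6.45 and 5.46 FPKM in Atf4AKO, against 1.41, 3.70 and 2.73 FPKM in Atf4WT. The groups did not overlap, and the log2 change was 1.37 (SE 0.38, 95% interval 0.45 to 2.29), or 0.99 without Atf4AKO 1. Cxcl3 behaved otherwise. It was 16.9 FPKM in Atf4AKO 1 and 0.154 and 0.392 FPKM in Atf4AKO 2 and 3, against 0.185, 0.0772 and 0.304 FPKM in Atf4WT. A single library thus held nearly all Cxcl3, and its log2 change was 1.37 with that library and 0.097 without it. Cxcl5 was under the limit for testing, at 0.783, 0.526 and 0.224 FPKM in Atf4AKO and 0.175, 0.0880 and 0.173 FPKM in Atf4WT, with no overlap. Cxcl15, an epithelial ligand, is described below with Cxcl17.

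The promoters of Cxcl1, Cxcl2 and Cxcl3 are shown because these neighbouring genes had different patterns over the libraries and share a stretch. They are given 5′ to 3′ as the 250 bases before the gene start in RefSeq on GRCm38, all on the plus strand, with matches to the kappaB consensus, the site bound by NF-kB, in capitals. The windows are chr5:90890995-90891244 for Cxcl1, chr5:90903649-90903898 for Cxcl2 and chr5:90785851-90786100 for Cxcl3.
Cxcl1: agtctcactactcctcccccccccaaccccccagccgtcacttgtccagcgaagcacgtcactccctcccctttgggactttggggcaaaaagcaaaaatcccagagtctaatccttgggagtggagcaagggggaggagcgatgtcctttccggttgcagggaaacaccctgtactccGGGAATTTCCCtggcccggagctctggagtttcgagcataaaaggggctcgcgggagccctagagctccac
Cxcl2: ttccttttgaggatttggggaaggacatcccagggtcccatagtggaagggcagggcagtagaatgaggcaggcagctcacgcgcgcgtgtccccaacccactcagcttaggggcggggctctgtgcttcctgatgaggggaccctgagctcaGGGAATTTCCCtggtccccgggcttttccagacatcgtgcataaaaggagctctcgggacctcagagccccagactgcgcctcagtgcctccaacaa
Cxcl3: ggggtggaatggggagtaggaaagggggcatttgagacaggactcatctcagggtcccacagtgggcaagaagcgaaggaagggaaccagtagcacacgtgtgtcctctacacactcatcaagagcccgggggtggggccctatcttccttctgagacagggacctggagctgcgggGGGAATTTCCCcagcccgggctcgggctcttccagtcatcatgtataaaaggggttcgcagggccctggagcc
Each held the same 11 bases, GGGAATTTCCC, which match on both strands, beginning 71 bases before the gene start in Cxcl1, 97 in Cxcl2 and 73 in Cxcl3. RefSeq promoters were found for 45 of the 60 members, and 10 of these 45 held a kappaB match, against 7.01% of 27025 mouse promoters of the same length. The others were Ackr2, Ccl1, Ccl9, Ccl20, Ccr1, Ccr3 and Cxcl10. Members without a promoter entry were not searched: Ccl2, Ccl4, Ccl5, Ccl7, Ccl11, Ccl21c, Ccl24, Ccl26, Ccr7, Ccr10, Cxcl5, Cxcl11, Cxcl16, Cxcl17 and Cxcr5. The AP-1 motif TGANTCA was in 4 of the 45 (background 6.87%), the interferon-response motif made of GAAA, any 2 bases and GAAA in 3 (background 3.04%) and the CRE motif TGACGTCA in 0 (background 1.62%). The ATF4-C/EBP composite motif TGATGNAA was in 1, that of Ccl27a (background 3.53%). Both strands were searched for every motif. A match is a description of the letters and not evidence of binding.

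The interferon-inducible ligands of Cxcr3 draw T and natural killer cells. Cxcl9 was 4.45, 6.12 and 3.04 FPKM in Atf4AKO, against 2.42, 2.53 and 2.33 FPKM in Atf4WT. All Atf4AKO libraries lay above the tightly grouped Atf4WT libraries, and the log2 change of 0.65 (SE 0.21, 95% interval 0.15 to 1.16) was the same without Atf4AKO 1. Cxcl10 was 2.5, 2.38 and 1.36 FPKM in Atf4AKO, against 1.40, 1.13 and 0.969 FPKM in Atf4WT, with a slight overlap and a log2 change of 0.49, or 0.39 without Atf4AKO 1. Its promoter is shown because it alone among the 45 held matches to kappaB, AP-1 and the interferon-response motif together (chr5:92348890-92349139, minus strand, GRCm38, kappaB matches in capitals).
Cxcl10: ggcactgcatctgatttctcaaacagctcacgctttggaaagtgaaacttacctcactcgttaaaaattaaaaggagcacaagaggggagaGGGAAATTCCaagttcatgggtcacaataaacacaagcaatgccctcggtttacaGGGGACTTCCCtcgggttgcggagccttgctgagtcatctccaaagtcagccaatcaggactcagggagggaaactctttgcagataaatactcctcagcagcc
Cxcl11, listed by RefSeq as a transcribed pseudogene, stayed at or below 0.235 FPKM.

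The eotaxins draw eosinophils through Ccr3. Ccl11 was 68.1, 96.6 and 84.7 FPKM in Atf4AKO, against 40.8, 53.1 and 70.3 FPKM in Atf4WT. Ccl24, made by macrophages, was 9.03, 13.9 and 6.47 FPKM in Atf4AKO, against 6.94, 5.03 and 3.57 FPKM in Atf4WT. Both overlapped between groups by a single pair of libraries, and Atf4AKO 2, not Atf4AKO 1, was the highest for each. The log2 changes were 0.61 for Ccl11 (95% interval 0.07 to 1.16) and 0.78 for Ccl24 (95% interval 0.05 to 1.52), and 0.75 and 0.81 without Atf4AKO 1. Ccr3 and the 4 eosinophil markers in the table were all under 0.5 FPKM in every library, and Ccl26 was listed at 0 throughout.

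Cxcl12, Cxcl14 and Cxcl13 were abundant, and their groups overlapped. Cxcl12, which retains cells that carry Cxcr4, was 60.5, 74.8 and 103.8 FPKM in Atf4AKO, against 85.3, 76.9 and 100.3 FPKM in Atf4WT. Its log2 change was -0.16 (SE 0.22, 95% interval -0.68 to 0.36), and 0.019 without Atf4AKO 1. Cxcl14 varied within both groups, from 13.2 to 52.5 FPKM in Atf4AKO and from 23.9 to 54.6 FPKM in Atf4WT, and its log2 change was -0.29, or 0.18 without Atf4AKO 1. Cxcl13, which guides B cells, was 173.7, 70.8 and 114 FPKM in Atf4AKO, against 115.0, 45.6 and 76.6 FPKM in Atf4WT. The groups overlapped broadly, with a log2 change of 0.59, or 0.28 without Atf4AKO 1, and its receptor gene Cxcr5 did not exceed 0.214 FPKM in any library.

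Ccl19 and Ccl21a guide cells with Ccr7 to lymphoid tissue. Ccl19 lay between 7.48 and 11.2 FPKM in Atf4AKO and between 6.07 and 11.5 FPKM in Atf4WT, a ratio of 1.11. Ccl21a was 1.28, 0.808 and 0.425 FPKM in Atf4AKO, against 0.113, 0.299 and 0.139 FPKM in Atf4WT. The groups did not overlap, but the levels were low, and the log2 change was 0.61 (SE 0.21), or 0.44 without Atf4AKO 1. Ccl21a has near-identical copies in Ccl21b and Ccl21c, both listed at 0, so how their shared reads were assigned is open to doubt. Summed B cell markers were 1.40 to 1.90 FPKM in Atf4AKO and 0.942 to 7.11 FPKM in Atf4WT, and the lymph node vessel gene Chst4 was listed at 0 in every library.

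Among the transmembrane ligands, Cx3cl1 was 1.28, 1.27 and 2.12 FPKM in Atf4AKO, against 5.42, 1.98 and 1.39 FPKM in Atf4WT, with Atf4WT 1 alone high. Cxcl16 was 6.42, 3.23 and 1.93 FPKM in Atf4AKO, against 3.48, 2.04 and 1.64 FPKM in Atf4WT, overlapping, with a log2 change of 0.45, or 0.093 without Atf4AKO 1. Xcl1, made by T and natural killer cells for dendritic cells with Xcr1, was 0.743, 1.38 and 0.798 FPKM in Atf4AKO, against 0, 0.395 and 0.388 FPKM in Atf4WT. It was near the lower limit for testing, with no overlap and a log2 change of 0.65 (SE 0.21), or 0.73 without Atf4AKO 1. T cell markers summed to 2.95 to 5.14 FPKM in Atf4AKO and 2.97 to 7.26 FPKM in Atf4WT.

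Ccl17, a ligand of Ccr4 made by dendritic cells and macrophages, was 1.97, 1.33 and 0.578 FPKM in Atf4AKO, against 0.152, 0.191 and 0 FPKM in Atf4WT. Every Atf4AKO library was above every Atf4WT library, at low levels throughout. The log2 change was 1.00 (SE 0.25, 95% interval 0.39 to 1.61), or 0.79 without Atf4AKO 1. Ccl22, the other ligand of Ccr4 and its neighbour on chromosome 8, did not share this pattern, at 0.485, 0.635 and 0.162 FPKM in Atf4AKO and 0.731, 0.757 and 0.196 FPKM in Atf4WT. Ccl25 and Ccl27a overlapped between groups, with ratios of 1.05 and 0.796. Ccl27a has a close copy in Ccl27b, which was listed at 0 in all libraries, as were Ccl1 and Ccl20, and Ccl28 did not exceed 0.242 FPKM.

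Cxcl15 and Cxcl17 are ligands of mucosal and glandular epithelium, and each was listed at 0 in libraries of both groups. Cxcl17 was 0, 0 and 5.18 FPKM in Atf4AKO 1, 2 and 3, against 25.8, 3.33 and 0 FPKM in Atf4WT 1, 2 and 3. Cxcl15 was 0, 0 and 0.747 FPKM in Atf4AKO, against 9.69, 1.24 and 0 FPKM in Atf4WT. Both were listed at 0 in the same 3 libraries. Krt8, a keratin of glandular epithelium, was listed at 0 in those 3 libraries as well, and was 17.5 FPKM in Atf4AKO 3, 174 FPKM in Atf4WT 1 and 21.4 FPKM in Atf4WT 2. The 8 epithelial markers summed to 1.5, 19.0 and 87.0 FPKM in Atf4AKO, against 552, 98.1 and 0.907 FPKM in Atf4WT. In Atf4AKO 2 most of the sum was Krt10 and Krt15, at 11.1 and 4.45 FPKM. The part of epithelial tissue in the 2 ligands was not tested.

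**Figure D3:**
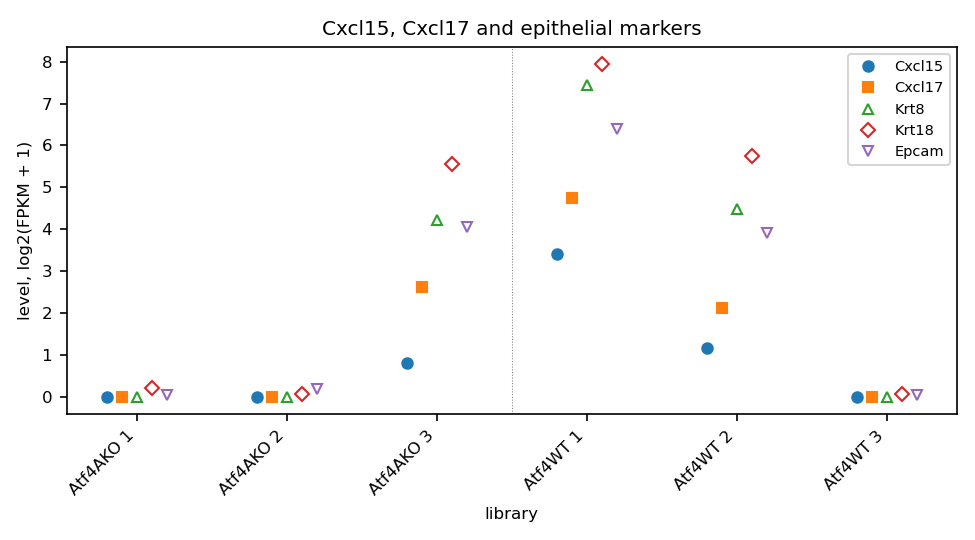
Levels of Cxcl15, Cxcl17 (filled) and the epithelial markers Krt8, Krt18 and Epcam (open) in each library, as log2(FPKM + 1), with Atf4AKO left of Atf4WT. All are high in Atf4WT 1, lower in Atf4AKO 3 and Atf4WT 2, and at or near 0 in the other libraries.

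The 3 tested receptors of myeloid cells were each highest in Atf4AKO 1. Ccr2, the receptor of monocytes, was 14.4, 1.33 and 1.58 FPKM in Atf4AKO 1, 2 and 3, against 2.33, 1.74 and 1.77 FPKM in Atf4WT. Atf4AKO 2 and 3 lay below every Atf4WT library, and the log2 change was 0.62 with all libraries (95% interval -1.07 to 2.32) and -0.26 without Atf4AKO 1. Of its ligands, Ccl2, Ccl7 and Ccl12 are among those without overlap between groups, so they form no contrast to Ccr2. Ccl8 was 26.4 FPKM in Atf4AKO 3 and 36.2 FPKM in Atf4WT 1.

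Cxcr2, the receptor of neutrophils for Cxcl1 and Cxcl2, was 2.77, 0.430 and 0.139 FPKM in Atf4AKO, against 0.109, 0.114 and 0.157 FPKM in Atf4WT. Its log2 change was 0.70, or 0.18 without Atf4AKO 1. Its high library is also the library with high Cxcl3. Of the 7 tested neutrophil markers 5 were highest there, and 2 of the 7 had negative log2 changes. S100a8, picked from that list after its values were seen, was 121 FPKM there and between 7.15 and 21.9 FPKM in the other Atf4AKO libraries. Ccr1 was 15.2, 4.18 and 3.17 FPKM in Atf4AKO, against 3.39, 1.42 and 1.57 FPKM in Atf4WT. The groups of Ccr1 overlapped only in Atf4AKO 3 and Atf4WT 1, and the log2 change was 1.23 (95% interval -0.05 to 2.51) and 0.63 without Atf4AKO 1. Cx3cr1, Cxcr1 and Ccr3 did not exceed 0.193 FPKM in any library. Whether the cells counted by these markers account for the receptor values was not tested.

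**Figure D4:**
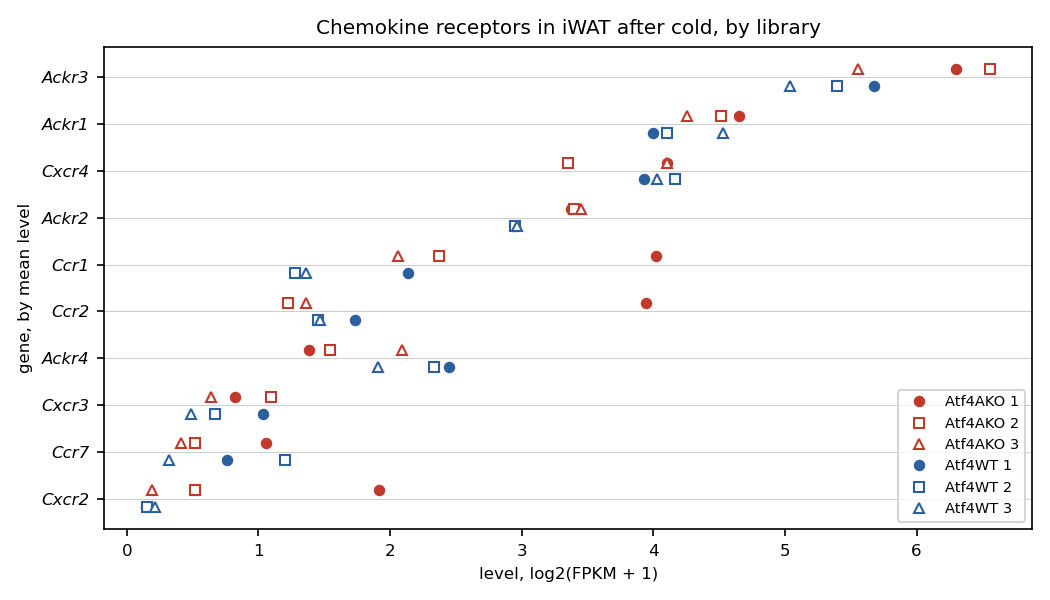
Level of each of the 10 tested receptors in each library, as log2(FPKM + 1), with genes ordered by mean level. Red symbols are Atf4AKO and blue symbols, drawn below them, Atf4WT. Ackr2 separates the groups, while Ccr1, Ccr2 and Cxcr2 have Atf4AKO 1 as a lone high point.

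Receptors of lymphocytes and dendritic cells were low except Cxcr4. Cxcr4, the receptor of Cxcl12, was 16.2, 9.23 and 16.2 FPKM in Atf4AKO, against 14.2, 16.9 and 15.3 FPKM in Atf4WT. Only Atf4AKO 2 stood lower, and the log2 change was -0.19 (SE 0.22, 95% interval -0.72 to 0.35), or 0.064 without Atf4AKO 2 and -0.31 without Atf4AKO 1. Cxcr3 was 0.766, 1.13 and 0.555 FPKM in Atf4AKO, against 1.05, 0.591 and 0.403 FPKM in Atf4WT. Ccr7 was 0.331 to 1.08 FPKM in Atf4AKO and 0.249 to 1.30 FPKM in Atf4WT, and the groups of both overlapped. The remaining 8 of this class, Ccr4, Ccr6, Ccr8, Ccr9, Ccr10, Cxcr5, Cxcr6 and Xcr1, did not exceed 0.379 FPKM in any library.

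The atypical receptors clear chemokines or carry them across vessel walls. Ackr2, which takes up inflammatory CC chemokines and is known from lymphatic endothelium, was the receptor that separated the groups. It was 9.39, 9.53 and 9.92 FPKM in Atf4AKO, against 6.69, 6.73 and 6.79 FPKM in Atf4WT. Both groups were tight, and the gap between them was larger than the range of either. The means were 9.61 ± 0.274 FPKM in Atf4AKO and 6.74 ± 0.0518 FPKM in Atf4WT (SD, n = 3 each), a ratio of 1.43. The log2 change was 0.46 (SE 0.09, 95% interval 0.23 to 0.68, limma adjusted p = 0.50, exact two-sided permutation p = 0.1), and 0.47 without Atf4AKO 1. Lymphatic endothelial markers summed to 3.16 to 4.16 FPKM in Atf4AKO and 2.86 to 4.59 FPKM in Atf4WT, and did not separate the groups, while Prox1, the factor that defines these cells, did not exceed 0.0492 FPKM in any library.

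Ackr3, which scavenges Cxcl12, was the receptor of highest mean. It was 77.7, 93.1 and 46.1 FPKM in Atf4AKO, against 50.1, 41.2 and 31.9 FPKM in Atf4WT. Atf4AKO 3 fell within the range of Atf4WT, and the log2 change was 0.77 (SE 0.29, 95% interval 0.07 to 1.47), or 0.69 without Atf4AKO 1. Ackr4, which scavenges Ccl19, Ccl21 and Ccl25, ran the other way, at 1.61, 1.91 and 3.26 FPKM in Atf4AKO, against 4.46, 4.05 and 2.76 FPKM in Atf4WT. Its groups overlapped in replicate 3 of each, with a log2 change of -0.56 (SE 0.24, 95% interval -1.12 to 0.01), and -0.41 without Atf4AKO 1. Ackr1, the receptor of venules and red cell precursors, was 24.1, 21.9 and 18.1 FPKM in Atf4AKO, against 15.0, 16.2 and 22.1 FPKM in Atf4WT. The groups overlapped, and the log2 change was 0.26, or 0.18 without Atf4AKO 1.

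**Figure D5:**
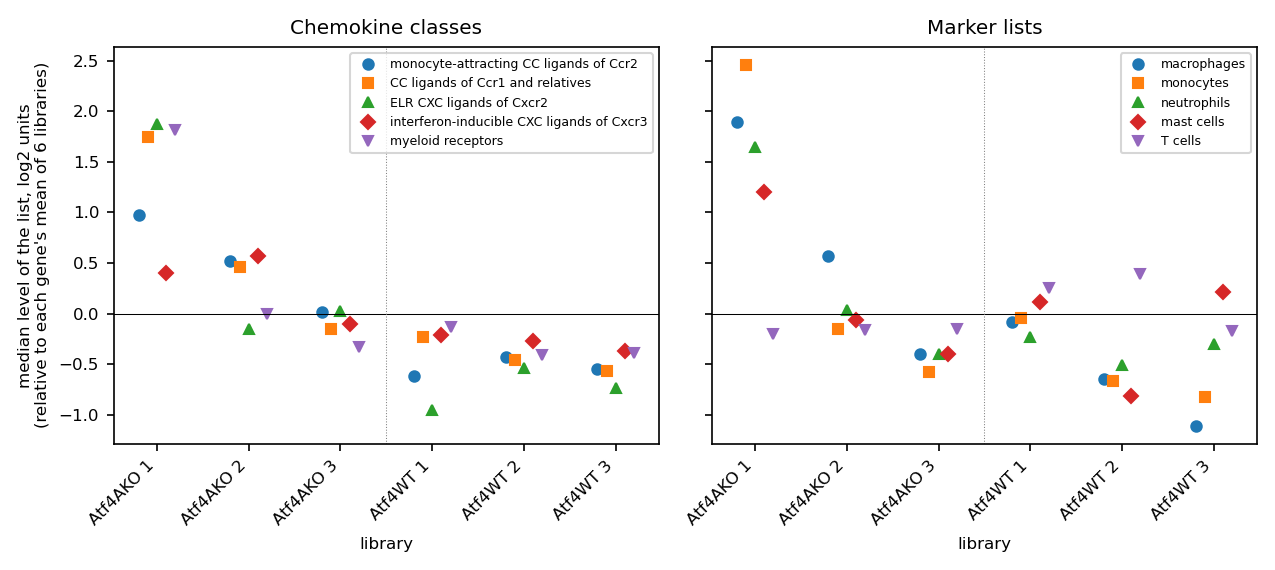
Median level of the tested genes of 5 chemokine classes (left) and of 5 marker lists (right) in each library, in log2 units relative to each gene's mean over the 6 libraries, with Atf4AKO left of Atf4WT in each panel. The level of the Ccr2 ligands is 0.97, 0.52 and 0.01 in Atf4AKO 1, 2 and 3 and -0.62, -0.43 and -0.55 in Atf4WT. Macrophage markers are above 0 in Atf4AKO 1 and 2, and myeloid receptors and monocyte markers in Atf4AKO 1 alone. The myeloid receptors of Atf4AKO 2, at -0.0057, are above every Atf4WT library.

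The classes and marker lists were set side by side by library. The level of the Ccr2 ligands, a median over the class relative to each gene's mean, was 0.97, 0.52 and 0.01 in Atf4AKO 1, 2 and 3, against -0.62, -0.43 and -0.55 in Atf4WT. That of the myeloid receptors was 1.81, -0.0057 and -0.33 in Atf4AKO, against -0.13, -0.41 and -0.39 in Atf4WT. Monocyte markers were at 2.46, -0.16 and -0.58 in Atf4AKO, against -0.04, -0.66 and -0.82 in Atf4WT, likewise above 0 in Atf4AKO 1 alone. Macrophage markers were at 1.89, 0.57 and -0.40 in Atf4AKO, against -0.08, -0.64 and -1.11 in Atf4WT. The macrophage markers of Atf4AKO 3 were below those of Atf4WT 1. Among tested ligands whose groups overlapped, Ccl6, Ccl8, Ccl9, Ccl24, Cxcl10, Cxcl13, Cxcl14, Cxcl15, Cxcl16, Cxcl17 and Cx3cl1 were likewise lower in Atf4AKO 3 than in Atf4WT 1. Ccl5, Ccl11, Ccl19, Ccl25, Ccl27a, Cxcl3 and Cxcl12 were higher there. The 11 ligands without overlap are higher in Atf4AKO 3 than in any Atf4WT library by the way they were picked, so they form no contrast to the markers.

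Position in the genome was not used to choose members, and several lie in runs (GRCm38, RefSeq). On chromosome 11, Ccl2, Ccl7, Ccl11, Ccl12, Ccl8 and Ccl1 lie in that order between 82035577 and 82179812, a span of 144.2 kb. The first 5 had positive log2 changes of 0.61 to 2.03, and Ccl1 at the far end was listed at 0. Ccl5, Ccl9, Ccl6, Ccl3 and Ccl4 follow between 83525778 and 83664683, all positive, from 0.36 for Ccl5 to 1.49 for Ccl6. On chromosome 5, Cxcl5, Cxcl3, Cxcl15, Cxcl1 and Cxcl2 lie between 90759298 and 90905938, and here the neighbours differed, from 2.49 for Cxcl2 to -1.26 for Cxcl15. On chromosome 9, Ccr9, Cxcr6, Xcr1, Ccr1, Ccr3 and Ccr2 lie between 123767211 and 124109140. Of these, Ccr1 and Ccr2 were high enough to be tested.

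Genes around the chemokines were described from 5 lists. Signal transduction behind the receptors had 23 of 28 tested genes positive with a median log2 change of 0.11, but 13 of 28 and a median of -0.032 without Atf4AKO 1. Of its genes of smallest p, Gng2, a G protein subunit, was 10.2 ± 5.21 FPKM in Atf4AKO and 4.80 ± 0.305 FPKM in Atf4WT, and Lyn, a kinase of myeloid cells, was 12.0 ± 7.93 FPKM in Atf4AKO and 5.74 ± 0.654 FPKM in Atf4WT (SD, n = 3 each). Their log2 changes were 0.86 for Gng2 and 0.77 for Lyn, and 0.50 and 0.31 without Atf4AKO 1. Arrb1, a beta-arrestin, was 5.48 ± 0.748 FPKM in Atf4AKO and 7.78 ± 2.24 FPKM in Atf4WT, and Plcb3, a phospholipase C, was 7.66 ± 1.90 FPKM in Atf4AKO and 9.75 ± 1.32 FPKM in Atf4WT. No gene of the 5 lists passed the test. A mean of at least 0.5 FPKM in 1 group only was found for 2 of these 28 genes. It was found for 2 of 21 NF-kB genes, 3 of 7 cytokines and 1 of 17 processing genes.

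NF-kB subunits and feedback genes were positive in 15 of 21 with a median of 0.26, and of 0.14 without Atf4AKO 1, against 50.6% positive over all tested genes. In 5 of the 21 every Atf4AKO library lay above every Atf4WT library, against 8.21% of all tested genes. Zfp36, which destabilises cytokine mRNA, was 345 ± 142.7 FPKM in Atf4AKO and 154 ± 23.7 FPKM in Atf4WT. Tnfaip3, a deubiquitinase that dampens NF-kB, was 4.11 ± 1.12 FPKM in Atf4AKO and 2.60 ± 0.0532 FPKM in Atf4WT. Birc3 was 13.6 ± 3.55 FPKM in Atf4AKO and 9.18 ± 1.12 FPKM in Atf4WT, and Nfkbia, the NF-kB inhibitor, was 278 ± 37.3 FPKM in Atf4AKO and 216 ± 21.2 FPKM in Atf4WT (SD, n = 3 each). These are feedback genes of the pathway, and their levels do not measure NF-kB activity.

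Of 17 cytokines that induce chemokines, 7 were high enough to be tested and 5 of these were positive, with a median log2 change of 0.25, or 0.040 without Atf4AKO 1. Il6 and Il1b had an Atf4WT mean under 0.5 FPKM, so they entered the test only through Atf4AKO, and Tslp entered only through Atf4WT. Il6 was 1.06 ± 0.340 FPKM in Atf4AKO and 0.495 ± 0.209 FPKM in Atf4WT with no overlap, as in 8.21% of all tested genes. Osm was 3.39 ± 2.53 FPKM in Atf4AKO and 1.08 ± 0.291 FPKM in Atf4WT. Il1b was 4.43 ± 6.89 FPKM in Atf4AKO and 0.343 ± 0.278 FPKM in Atf4WT, and Ltb was 0.751 ± 0.476 FPKM in Atf4AKO and 1.46 ± 0.704 FPKM in Atf4WT (SD, n = 3 each). The large spread of Osm and Il1b within Atf4AKO leaves their differences within it. Interferon response genes were evenly split, 12 of 21 positive with a median of 0.040, and -0.19 without Atf4AKO 1. Irf8 was 6.24 ± 4.15 FPKM in Atf4AKO and 2.97 ± 0.390 FPKM in Atf4WT, Irf1 was 11.2 ± 2.95 FPKM in Atf4AKO and 14.7 ± 2.18 FPKM in Atf4WT, and Oas1a and Igtp overlapped between groups.

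Genes that process chemokines or hold them on the cell surface were positive in 13 of 17 with a median of 0.46, and of 0.11 without Atf4AKO 1. Over all tested genes 50.6% were positive. Ext1, which builds heparan sulfate chains, was 18.0 ± 2.11 FPKM in Atf4AKO and 12.6 ± 1.25 FPKM in Atf4WT. Sdc4, a syndecan that carries such chains, was 266 ± 56.7 FPKM in Atf4AKO and 169 ± 21.6 FPKM in Atf4WT. The metalloproteases that trim chemokines were also among those of smallest p, with Mmp2 at 88.5 ± 23.8 FPKM in Atf4AKO and 54.1 ± 12.4 FPKM in Atf4WT, and Mmp14 at 67.4 ± 9.42 FPKM in Atf4AKO and 49.2 ± 10.2 FPKM in Atf4WT (SD, n = 3 each). In 4 of the 17, Ext1, Sdc4 and Mmp2 among them, every Atf4AKO library lay above every Atf4WT library, against 8.21% of all tested genes. Fibroblast and preadipocyte markers, which share this tissue compartment, summed to 2708, 1935 and 1485 FPKM in Atf4AKO, against 1520.5, 986 and 1039 FPKM in Atf4WT, and their part was not tested.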

How the data were processed

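Stranded poly(A) RNA-seq libraries of iWAT were made from TRIzol-extracted RNA, per the labels' protocols. The deposited table holds FPKM per gene symbol and library, made by the authors. The genome build was mm10, per the submitters' processing notes. Which aligner, quantifier and annotation were used is not given in the sources used here. Summed values per library ran from 524158 to 717778 FPKM. Read totals are unknown, hence no counting intervals, and genes without signal are described as listed at 0.

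Genes averaging at least 0.5 FPKM were kept (12818), and log2(FPKM + 1) was compared between groups with limma 3.58.1 in R 4.3.3 (trended eBayes, no covariate), with Benjamini-Hochberg adjustment across these 12818 genes at 0.05. The procedure was tested on simulated data. 1 row that meets the naming rule is not reported here. The members and gene lists were chosen with earlier results of these data known. Values are given per library for the 14 ligands and 9 receptors of smallest p, the 4 of highest mean in each role, and, after their values were seen, for Ccl4, Ccl8, Cxcl3, Cxcl5, Cxcl15, Cxcl16, Cxcl17, Cx3cl1 and Ccl22. Of each list around the chemokines the 4 genes of smallest p were named, and markers named singly were chosen after their values were seen. Promoters and coordinates are from RefSeq (GRCm38). The 14 alternatives were other scalings, pseudocounts, filters and variance priors, a replicate block, and leaving out each library. When a library was left out, the genes kept were still those chosen by the mean of all 6 libraries.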

Additional observations from a re-analysis of the deposited data

How the results depend on the processing

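No ligand or receptor passed under any of the 14 alternatives. The smallest adjusted p of a member ran from 0.0935 (Ccl7, without Atf4AKO 3) to 0.885 (Ackr2, without Atf4AKO 2). Of 358 recomputed log2 changes of the 26 members named by rule, 353 kept their direction, and 5 turned, each when a library was left out. Over those fits Ccr2 ran from -0.26 to 1.10 and Cxcl12 from -0.37 to 0.019, turning without Atf4AKO 1. Cxcr3 ran from -0.0034 to 0.27, turning without Atf4AKO 2 and without Atf4WT 3, and Cxcr4 from -0.31 to 0.064, turning without Atf4AKO 2. Leaving out a library gave a receptor median from 0.15 to 0.44 and a ligand median from 0.48 to 0.78. With no filter on low values the receptor median was 0.016, since receptors near 0 then enter. Over all genes the count called higher, 2 in the comparison reported, ran from 1 to 3 and the count called lower, 0 there, from 0 to 2 when a library was left out. Rescaling to equal sums put the median of all genes at -0.12, against 0.0046 as reported, and the log2 change was then positive in 21 of 28 ligands and 7 of 10 receptors. The replicate block gave 0 genes called higher and a smallest member adjusted limma p of 0.29 (Ccl7). An unadjusted limma p under 0.05 was then found for 1969 genes, against 1276 as reported. The deviations of same-numbered libraries correlated at 0.0818, 0.404 and 0.0691. Atf4AKO 1 and 2 correlated best with the Atf4WT library of the same number, and Atf4AKO 3 with Atf4WT 1 (0.187). The labels state no pairing, and these values do not settle it. The count of ligands above all Atf4WT libraries without Atf4AKO 1, 12, was added after the data were seen.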

Other observations

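Pf4 and Ppbp, the chemokines Cxcl4 and Cxcl7 under other symbols, fall outside the naming rule and were in the platelet marker list. Pf4 was 568, 291 and 130.4 FPKM in Atf4AKO 1, 2 and 3, against 185, 85.0 and 70.4 FPKM in Atf4WT 1, 2 and 3. Ppbp was 33.4, 14.6 and 7.01 FPKM in Atf4AKO, against 9.69, 2.80 and 3.68 FPKM in Atf4WT. Pf4 was above every tested ligand but Ccl6 in each library except Atf4WT 3. All 4 genes of that list, Pf4, Ppbp, Itga2b and Gp9, had positive log2 changes, with a median of 0.82, or 0.67 without Atf4AKO 1. Pf4 and Ppbp are part of that median, so it is no separate measure of platelets. Itga2b, the platelet integrin of the same list, picked after its values were seen, lay between 1.71 and 2.55 FPKM in Atf4AKO. In Atf4WT it lay between 1.87 and 2.19 FPKM, and both ranges were narrower than those of Pf4 and Ppbp. The part of platelets in Pf4 and Ppbp was not tested. Pf4 placed the 6 libraries in the same order as Ccl6 and Ccl9.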
